A study of Mus musculus with 6 samples.

Results

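The small leucine-rich proteoglycans were followed through the mouse sciatic nerve at birth and in the adult by 9 genes: Dcn (decorin), Lum (lumican), Bgn (biglycan), Fmod (fibromodulin), Ogn (osteoglycin), Prelp, Omd (osteomodulin), Aspn (asporin) and Podn (podocan). They were taken by gene symbol from the gene list shared by all libraries, where each symbol matched 1 of 41605 features, and all 9 were detected. Their levels were compared between the endoneurial, perineurial and epineurial layers of fibroblasts, and between these layers and the other cells of the nerve. The layers were gated with genes that are not among the 9, so that a difference between layers was not fixed by the gate.

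Small leucine-rich proteoglycans are secreted proteins built around a chain of leucine-rich repeats. Most of them bind fibrillar collagens and set how thick and how evenly spaced the fibrils become, and several also bind growth factors of the TGF-beta family. In the nerve, the collagen matrix they sit in differs between the endoneurium around the axons, the sleeve of flattened perineurial cells around each fascicle, and the outer epineurium. By sequence, Dcn, Bgn and Aspn belong to class I, Lum, Fmod, Prelp and Omd to class II, Ogn to class III, and Podn to class V.

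Single-cell libraries (10x Chromium 3' chemistry, version 2) were made from the sciatic nerve of newborn mice on postnatal day 1, called P1 here, and of adults on day 60, called P60, with 3 libraries for each. All mice carried a Cre transgene active in Schwann cells, together with a Rosa26 eYFP reporter that Cre switches on and a βAct-DsRed transgene, on a C57bl/6J background. Nerves of females and males were pooled in equal parts, and DsRed-positive cells were sorted. At P1 the cells positive for both DsRed and eYFP were also selected against, so shares of Schwann cells are set by the sort and are not compared here. The labels call the libraries biological replicates without naming the animals behind each. The edgeR p-values below rest on the spread between these pools for age, and on the spread of layer differences within them for layers. The spread of each gene was estimated with help from the other genes, so very small p-values do not come from 3 libraries alone.

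Of 24510 barcodes, 24337 with 500 to 5000 detected genes were kept, and the libraries held 20092957 to 29371559 unique molecular identifiers (UMIs, each standing for 1 captured RNA molecule) in 3435 to 4586 cells. P60 replicate 3 stood apart: 16.2% of its cells had over 10% mitochondrial UMIs, against 2.97% and 4.84% in the other P60 libraries, and its median of 3627 UMIs per cell was the lowest of the 6. Where a call of a member turned on this library, the value without it is given as well. Of 23998 different barcodes, 337 occurred in more than 1 library.

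The gate placed 1616 cells at P1 and 816 at P60 in the endoneurial layer, 868 and 2127 in the perineurial layer, and 1304 and 3239 in the epineurial layer, while 1337 and 938 cells of the fibroblast lineage stayed without a layer. Examples of markers kept out of the gate were Msln (perineurial) and Meox1 (endoneurial). Msln reached 12.5 CPM (counts per 1e6 UMIs of the class) in perineurial cells at P1 and 807 at P60. In the other layers it ran from 0.567 to 82.0 over both ages, a top above the perineurial level at P1. Meox1 reached 271 and 116 CPM in endoneurial cells, against 0.638 to 29.9 in the other layers. The layer gates are ranges of a score, not sealed types. At P1, perineurial cells held a median of 12.0 UMIs per 10000 of the epineurial gate genes and 5.54 of the perineurial ones. At P60 these medians were 5.09 and 40.3. The study called its own layer assignments at P1 tentative, and perineurial at P1 is here the name of a gate. The lead of the best score lay within 0.1 of the threshold in 18% of fibroblast-lineage cells at P1 and 9.76% at P60. Endoneurial cells at P60 held 11 perineurial markers at a median of 11.7% of their perineurial level (5.17% to 60.6%), and 11 epineurial markers at a median of 12.1% of their epineurial level (3.20% to 31.2%). Endoneurial cells at P1 held the epineurial markers at a median of 4.6% of their epineurial level (0.478% to 82.8%). Perineurial cells held them at a median of 19.5% (0.467% to 91.7%) at P1 and 13.1% (1.13% to 125%) at P60. The part of these neighbouring RNAs in the results below was not tested beyond the values given beside them.

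Most of the family sits in 3 gene clusters (GRCm38 coordinates). On chromosome 10, plus strand, Dcn (97479609 to 97518143) lies 47.0 kb before Lum (97565128 to 97572703). On chromosome 13, plus strand, Aspn (49544443 to 49567565), Omd (49582462 to 49592822) and Ogn (49608046 to 49624501) follow each other with 14.9 and 15.2 kb between them. All 3 lie within Cenpp, a gene on the opposite strand, whose own level was 0.726 to 2.02 CPM in the P60 layers and 3.91 to 16.4 CPM in the P1 layers. Whether the counting used strand is not given in the sources used here. On chromosome 1, Prelp (133910304 to 133921414, minus strand) and Fmod (134037254 to 134048277, plus strand) are 115.8 kb apart. Podn lies on chromosome 4 (108014791 to 108096445, minus strand) and its annotated span overlaps Scp2 on the same strand. Bgn lies on the X chromosome (73483602 to 73495933, plus strand).

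The clusters are of interest here because neighbours differed in their pattern: of the chromosome 13 genes, Aspn was lower at P60 in perineurial and epineurial cells while Omd and Ogn were higher there, whereas Fmod and Prelp, the chromosome 1 pair, were both higher at P60 in all 3 layers. The start regions of these 5 genes are therefore shown, each from 250 bases before to 50 bases after the annotated start (RefSeq, GRCm38.p6), 5′ to 3′ on the gene's own strand. The RefSeq table matched 7 of the 9 members. Capitals mark matches to 3 motifs searched on both strands, TATAAA (the TATA box core), CCAAT and TGANTCA (the AP-1 motif). Of 32851 mouse start regions of the same length, 13.6% held TATAAA, 37.4% CCAAT and 7.81% TGANTCA.

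Aspn, chr13:49544193-49544492, plus strand: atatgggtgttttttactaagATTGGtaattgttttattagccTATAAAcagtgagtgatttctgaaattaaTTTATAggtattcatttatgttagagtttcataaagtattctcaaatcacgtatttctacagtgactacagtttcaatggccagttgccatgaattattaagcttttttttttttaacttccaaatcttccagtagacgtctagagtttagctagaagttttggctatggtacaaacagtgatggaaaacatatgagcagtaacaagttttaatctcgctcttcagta
Omd, chr13:49582212-49582511, plus strand: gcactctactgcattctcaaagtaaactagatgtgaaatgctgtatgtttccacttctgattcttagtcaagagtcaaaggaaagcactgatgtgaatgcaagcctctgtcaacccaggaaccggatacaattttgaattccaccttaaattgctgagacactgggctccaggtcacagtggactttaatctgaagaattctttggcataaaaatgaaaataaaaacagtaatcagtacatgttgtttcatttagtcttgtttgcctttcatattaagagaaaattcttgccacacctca
Ogn, chr13:49607765-49608064, plus strand: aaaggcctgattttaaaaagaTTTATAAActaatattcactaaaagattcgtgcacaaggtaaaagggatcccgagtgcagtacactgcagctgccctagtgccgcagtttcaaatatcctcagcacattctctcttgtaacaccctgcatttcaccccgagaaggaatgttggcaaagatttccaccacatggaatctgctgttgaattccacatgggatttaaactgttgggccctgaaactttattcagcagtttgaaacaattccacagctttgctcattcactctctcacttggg
Fmod, chr1:134037004-134037303, plus strand: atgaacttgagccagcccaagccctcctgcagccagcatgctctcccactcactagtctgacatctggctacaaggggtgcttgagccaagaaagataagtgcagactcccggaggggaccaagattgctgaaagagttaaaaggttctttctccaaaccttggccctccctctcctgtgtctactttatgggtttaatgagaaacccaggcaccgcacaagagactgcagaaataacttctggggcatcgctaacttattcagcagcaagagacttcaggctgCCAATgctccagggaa
Prelp, chr1:133921352-133921651, minus strand: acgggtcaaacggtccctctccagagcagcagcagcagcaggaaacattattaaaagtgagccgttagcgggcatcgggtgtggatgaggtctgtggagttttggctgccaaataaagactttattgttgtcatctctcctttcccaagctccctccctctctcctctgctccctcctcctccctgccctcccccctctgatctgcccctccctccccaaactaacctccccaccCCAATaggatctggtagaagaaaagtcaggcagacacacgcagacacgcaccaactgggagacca

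Aspn and Ogn held TATAAA on both strands, between 178 and 229 bases before the start, Aspn also held CCAAT on the minus strand 229 bases before it, and Omd between them held none of the 3 motifs. Prelp held CCAAT 15 bases before its start and Fmod 34 bases after it. These matches describe the letters in the windows and are not binding sites shown by these data.

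Most of the members were higher at P60 than at P1, but not all, and not in every layer. In endoneurial cells 6 of the 9 members rose and 0 fell, also at an unadjusted p under 0.05 and in DESeq2, against a background of 24.1% of 11353 genes that rose and 23.6% that fell. In perineurial cells 5 rose and 2 fell (background 27.3% and 26.6% of 11611 genes), and in epineurial cells 6 rose and 2 fell (background 21.9% and 21.1% of 11647 genes). Rose and fell mean an adjusted p under 0.05 in edgeR's quasi-likelihood test, with Benjamini-Hochberg adjustment over all genes of that layer. The median log2 change over the 9 members was 2.38 in endoneurial, 1.09 in perineurial and 1.50 in epineurial cells, against medians of -0.00437, 0.0162 and 0.0148 over all genes tested. Dcn, Prelp, Omd and Fmod rose in all 3 layers, Aspn fell in 2, Podn rose in 2 and was not called in perineurial cells, and Lum rose in endoneurial cells and fell in the other two. In bulk sums such as these, a change in the share of cells that use a gene and a change in the level per cell are not told apart, so the share of cells with a UMI is given as well.

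**Figure D1:**
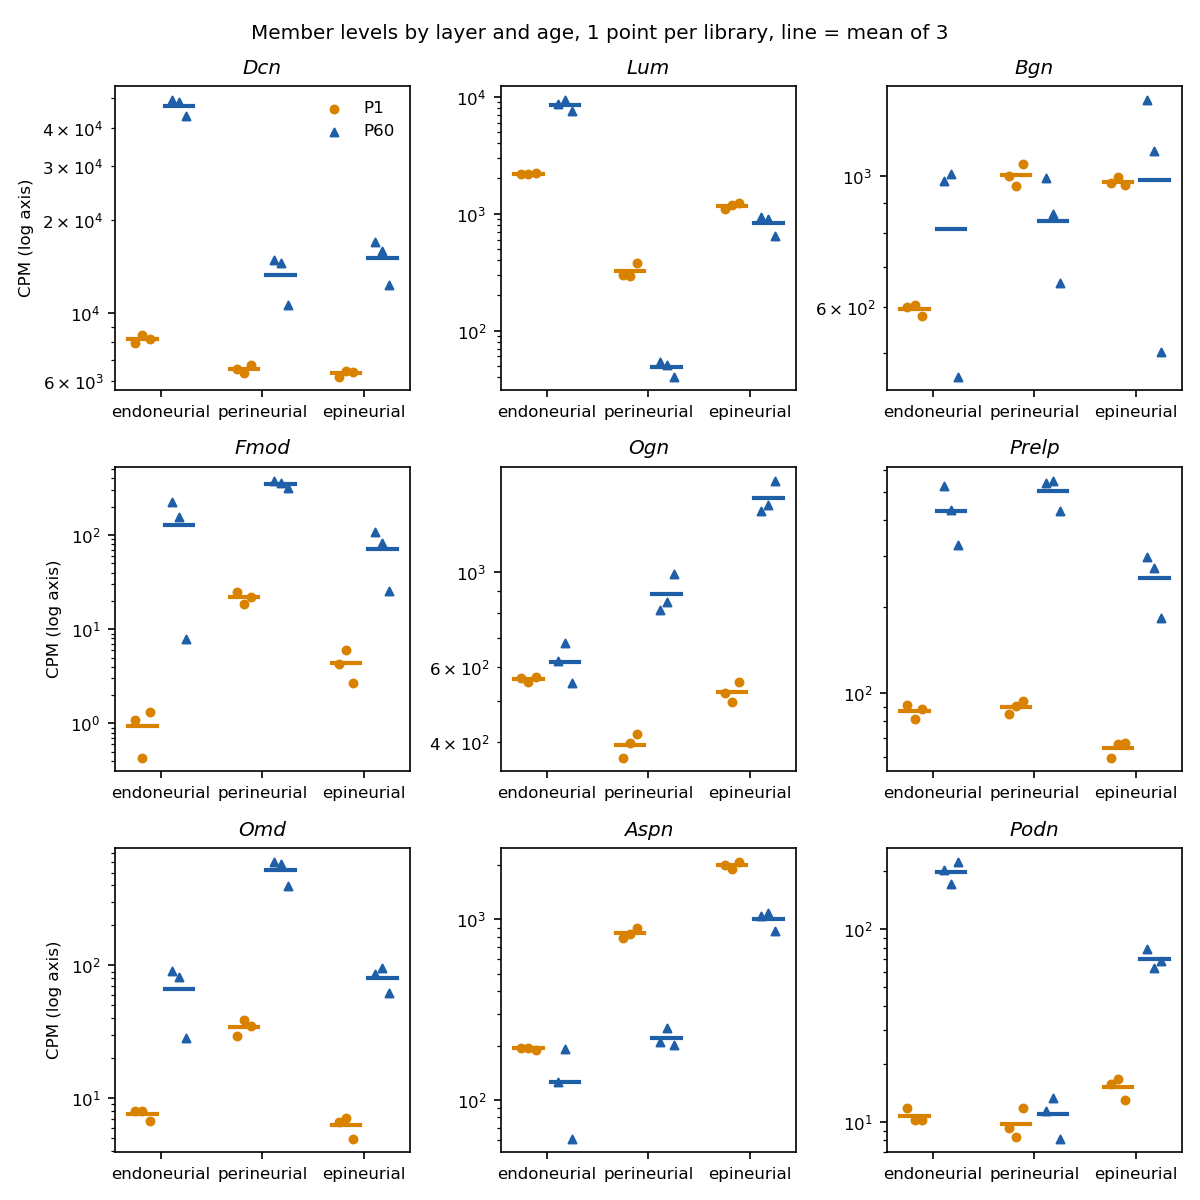
Level of each member in each layer, in CPM on a logarithmic axis, with P1 as circles, P60 as triangles and the mean of 3 libraries as a line. Dcn and Podn at P60 were highest in endoneurial cells, Omd and Fmod in perineurial cells, and Ogn and Aspn in epineurial cells.

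**Figure D2:**
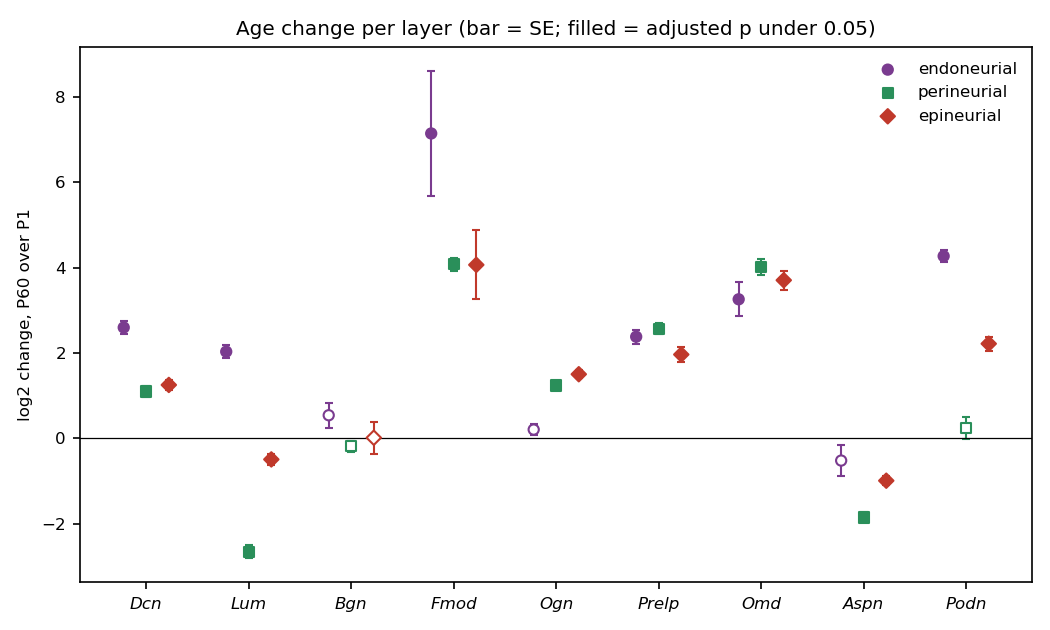
Log2 change of each member from P1 to P60 in each layer, with its standard error; filled symbols passed an adjusted p of 0.05. Lum was 2.03 in endoneurial, -2.66 in perineurial and -0.50 in epineurial cells, while Bgn was not called in any of the 3.

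Dcn encodes decorin, the collagen-binding proteoglycan with a single glycosaminoglycan chain, and had the highest level of the 9 in each layer at both ages, counted as UMIs, which do not scale with transcript length. In endoneurial cells it stood at 7968, 8440 and 8202 CPM in the 3 P1 libraries and at 49462, 48578 and 43892 CPM in the 3 P60 libraries. The ages were far apart, and the lowest P60 library was P60 replicate 3. The log2 change was 2.60 ± 0.15 (SE; edgeR, adjusted p = 2.5e-09). In perineurial cells Dcn rose from 6562 ± 207 to 13307 ± 2330 CPM (SD, n = 3 libraries), a log2 change of 1.09 ± 0.13 (edgeR, adjusted p = 5.2e-06). In epineurial cells it rose from 6357 ± 144 to 15098 ± 2445 CPM, a log2 change of 1.25 ± 0.11 (edgeR, adjusted p = 1.9e-06). After thinning every cell to 1500 UMIs, Dcn was found in 91.6% to 100% of the cells of each layer in each library, so most cells of every layer held it at both ages.

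Bgn encodes biglycan, the class I relative with 2 glycosaminoglycan chains. At P1 its levels were close within each layer: 600, 604 and 579 CPM in endoneurial, 1001, 964 and 1052 in perineurial, and 976, 999 and 965 in epineurial cells. At P60 the first 2 libraries and the last separated, with 981, 1008 and 457 CPM in endoneurial, 992, 863 and 660 in perineurial, and 1350, 1103 and 503 in epineurial cells. P60 replicate 3 was the lowest of the P60 libraries in each layer. With it, no age change of Bgn was called in a layer, and the log2 changes were 0.54 ± 0.29, -0.19 ± 0.13 and 0.01 ± 0.38 (edgeR, adjusted p = 0.17, 0.25 and 0.98). Without it, Bgn was called higher at P60 in endoneurial cells (0.83 ± 0.06; edgeR, adjusted p = 3.9e-14) and in epineurial cells (0.34 ± 0.07; edgeR, adjusted p = 7.6e-04), and perineurial cells stayed uncalled at -0.02 ± 0.06. The share of epineurial cells with a Bgn UMI at equal depth went the other way. It was 67.2% to 67.7% at P1 and 35.9% to 57.1% at P60, with no overlap. In endoneurial cells (53% to 56% and 39.3% to 65.4%) and perineurial cells (65.6% to 70.4% and 58.1% to 72%) the shares of the ages overlapped. The layer order of Bgn at P60 also depended on that library and on the gate. No pair of layers differed with it under the gate used here, and all 3 pairs did without it. Under an alternative gate on marker presence, with every library kept, all 3 pairs were also called. Epineurial cells were above both other layers in each of these fits. Perineurial minus endoneurial cells was at -0.17 ± 0.06 without P60 replicate 3 and at 0.42 ± 0.14 under the alternative gate (edgeR, adjusted p = 0.0072 and 0.046).

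Aspn encodes asporin, a class I member with a run of aspartate residues that binds collagen and calcium. In epineurial cells it stood at 2011, 1893 and 2083 CPM at P1 and at 1050, 1090 and 861 CPM at P60, with no overlap, a log2 change of -0.99 ± 0.11 (edgeR, adjusted p = 9.0e-06). In perineurial cells it fell from 789, 827 and 898 CPM to 209, 249 and 201 CPM, a log2 change of -1.86 ± 0.12 (edgeR, adjusted p = 1.1e-08). The share of cells with an Aspn UMI at equal depth moved the same way, from 53.0% to 59.3% of perineurial cells at P1 to 20.3% to 24.9% at P60, and from 81.7% to 85.5% of epineurial cells to 58.5% to 62.6%. The epineurial gate genes summed to 1317, 1301 and 1379 CPM in perineurial cells at P1, against 4054, 4193 and 4278 in epineurial cells. At P60 they summed to 823, 804 and 608 CPM, against 13177, 13694 and 11766. The part of epineurial RNA in the perineurial fall of Aspn was not tested. At both ages the order of the layers for Aspn was epineurial, perineurial, endoneurial. Epineurial cells exceeded endoneurial cells by 3.53 ± 0.04 on the log2 scale at P1 and by 3.11 ± 0.23 at P60 (edgeR, adjusted p = 1.0e-121 and 2.3e-04).

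In endoneurial cells Aspn lay at 194, 195 and 190 CPM at P1 and at 125, 192 and 61.0 CPM at P60, and the fall was not called (-0.52 ± 0.36; edgeR, adjusted p = 0.29). The P60 libraries differed among themselves, and the middle one overlapped P1. Cells with a UMI of a tendon marker (Tnmd, Scx or Mkx) moved with this: 10, 7 and 1 endoneurial cells of the P60 libraries held one, and in the first 2 libraries these few cells gave 39.5% and 43.3% of the Aspn UMIs. Without such cells the P60 values were 79.7, 114 and 61.3 CPM, all below P1, and the fall was called (-1.12 ± 0.17; edgeR, adjusted p = 5.8e-05). It was also called without P60 replicate 2 (-0.97; edgeR, adjusted p = 0.0048), with the gate lead doubled (-1.14 ± 0.26; edgeR, adjusted p = 0.0058) and, with a larger fall, under a gate on marker presence (-3.33 ± 0.17; edgeR, adjusted p = 9.5e-10). Leaving out P60 replicate 3 instead gave -0.21 ± 0.13 (edgeR, adjusted p = 0.19). The share of endoneurial cells with an Aspn UMI was 18.1% to 19.7% at P1 and 3.57% to 8.40% at P60.

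Lum encodes lumican, a class II keratan sulphate proteoglycan that spaces collagen fibrils, and it had the largest layer difference of the 9 at P60. In endoneurial cells it rose from 2163, 2195 and 2221 CPM at P1 to 8660, 9396 and 7556 CPM at P60, a log2 change of 2.03 ± 0.15 (edgeR, adjusted p = 2.3e-08). In perineurial cells it fell from 297, 291 and 376 CPM to 53.8, 50.9 and 40.4 CPM, a log2 change of -2.66 ± 0.15 (edgeR, adjusted p = 3.6e-09). The fall was smaller under the gate on marker presence (-0.62 ± 0.16; edgeR, adjusted p = 0.0044) and was not called with 50 cells drawn per library (-1.86 ± 0.76; edgeR, adjusted p = 0.12). The P60 perineurial level was below the 67.3 to 72.5 CPM found in immune cells of the same libraries, a level that carried-over RNA can give. At equal depth 19.5% to 20.4% of perineurial cells held a Lum UMI at P1 and 3.83% to 8.45% at P60, against 4.74% to 7.78% of immune cells at P60. In epineurial cells Lum stood at 1086, 1175 and 1237 CPM at P1 and 936, 901 and 638 CPM at P60. These groups did not overlap, but the log2 change of -0.50 ± 0.13 (edgeR, adjusted p = 0.010) was not called without P1 replicate 3 (adjusted p = 0.052), and turned to 0.70 ± 0.14 (edgeR, adjusted p = 0.0019) under a gate on marker presence that placed 5045 P60 cells in the epineurial layer.

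Fmod encodes fibromodulin, the class II relative of lumican that is abundant in tendon. In perineurial cells Fmod stood at 25.1, 18.3 and 21.8 CPM at P1 and at 377, 358 and 318 CPM at P60, a log2 change of 4.08 ± 0.15 (edgeR, adjusted p = 6.9e-11). All P60 libraries were far above all P1 libraries. The share of perineurial cells with an Fmod UMI at equal depth was 2.54% to 4.56% at P1 and 30.5% to 36.3% at P60. With 3 libraries an age, an exact two-sided permutation test of such shares cannot go below p = 0.1, the value Fmod reached here (0.135 after adjustment over 27 gene and layer pairs).

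The endoneurial and epineurial levels of Fmod at P60 came largely from few cells. In endoneurial cells the P1 libraries held 1.08, 0.434 and 1.32 CPM and the P60 libraries 224, 156 and 7.91 CPM. In P60 replicates 1 and 2 a single cell each held 213 of 281 and 124 of 165 Fmod UMIs, and the cells with a tendon marker held 238 and 132 of them. P60 replicate 3, with 1 tendon-marker cell, had 7 Fmod UMIs in all. Without tendon-marker cells the P60 values were 36.1, 32.8 and 7.94 CPM, and the log2 change was 7.14 ± 1.46 with every cell and 4.72 ± 0.53 without them (edgeR, adjusted p = 0.018 and 8.6e-06). The call with every cell was lost without P1 replicate 2 or 3 or without P60 replicate 1 or 2 (edgeR, adjusted p = 0.058 to 0.062). At equal depth 0% to 0.419% of endoneurial cells at P1 and 0% to 3.44% at P60 held an Fmod UMI. These shares overlapped (exact permutation test, p = 0.4), while those of epineurial cells did not (0.226% to 1.06% and 2.1% to 4.45%).

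In epineurial cells Fmod rose from 4.30, 6.05 and 2.66 CPM to 108, 81.9 and 25.2 CPM (4.06 ± 0.81; edgeR, adjusted p = 0.014). Tendon-marker cells held 61.2%, 55.8% and 30.6% of those P60 UMIs, and without them the log2 change was 2.94 ± 0.44 (edgeR, adjusted p = 7.2e-04). Perineurial cells were not shown to exceed endoneurial cells at P60 with every cell kept (1.53 ± 0.62; edgeR, adjusted p = 0.12), and exceeded them without the tendon-marker cells (3.72 ± 0.34; edgeR, adjusted p = 5.9e-04) and without P60 replicate 3 (0.88 ± 0.07; edgeR, adjusted p = 1.5e-30). Epineurial cells were below perineurial cells at P60 (-2.31 ± 0.52; edgeR, adjusted p = 0.018), a call lost without P60 replicate 1 or 2 (adjusted p = 0.11 and 0.17).

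**Figure D3:**
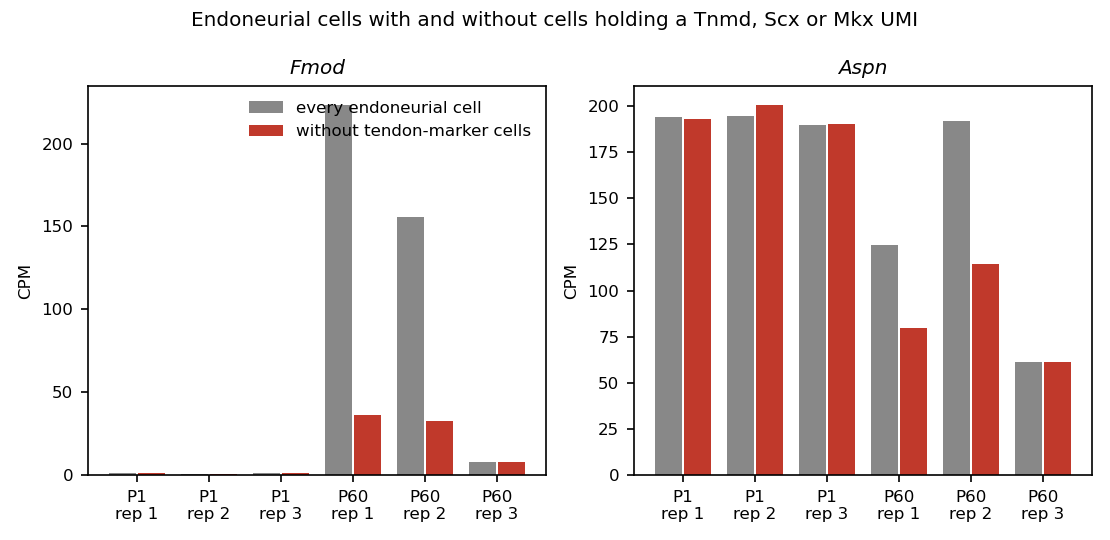
Level of Fmod and Aspn in endoneurial cells of each library, in CPM from 0, with every gated cell in grey and without cells holding a UMI of Tnmd, Scx or Mkx in red. Fmod dropped from 224 to 36.1 and from 156 to 32.8 CPM in P60 replicates 1 and 2, while the P1 libraries and P60 replicate 3 moved little.

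Prelp encodes a class II protein of connective tissue that lies near basement membranes. It rose in each layer, from 87.0 ± 4.77 to 429 ± 98.5 CPM (SD, n = 3 libraries) in endoneurial, from 89.6 ± 4.68 to 506 ± 65.4 CPM in perineurial and from 64.6 ± 4.12 to 251 ± 60.5 CPM in epineurial cells. The log2 changes were 2.38 ± 0.17, 2.57 ± 0.13 and 1.96 ± 0.17 (edgeR, adjusted p = 1.9e-08, 1.3e-09 and 2.2e-06). No P60 library overlapped a P1 library in any layer. The share of cells with a Prelp UMI at equal depth rose from a mean of 12.3% to 42.9%, from 11.4% to 49.8% and from 9.13% to 26.9%. At P60 epineurial cells were below both other layers (-0.67 ± 0.08 against endoneurial and -0.92 ± 0.07 against perineurial cells; edgeR, adjusted p = 3.4e-09 and 3.3e-14).

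Omd encodes osteomodulin, also called osteoadherin, a class II keratan sulphate proteoglycan best known from bone. It was higher in perineurial cells than in the other layers at both ages. In perineurial cells it rose from 29.3, 38.9 and 34.8 CPM to 602, 582 and 394 CPM, a log2 change of 4.02 ± 0.19 (edgeR, adjusted p = 4.9e-10). The P60 libraries were all above the P1 libraries, and P60 replicate 3 was the lowest of them. At equal depth 2.54% to 4.56% of perineurial cells at P1 and 37.5% to 55.6% at P60 held a UMI. Perineurial cells exceeded endoneurial cells by 2.12 ± 0.17 at P1 and 2.95 ± 0.12 at P60 on the log2 scale, and exceeded epineurial cells by similar amounts, since epineurial minus perineurial was -2.26 ± 0.20 and -2.59 ± 0.09 (edgeR, adjusted p = 5.9e-23, 5.5e-14, 1.4e-19 and 1.7e-15). Omd also rose in endoneurial cells, from 6.81 to 8.03 CPM at P1 to 28.3 to 90.7 CPM at P60, and in epineurial cells, from 4.98 to 7.12 CPM to 61.5 to 95.7 CPM (edgeR, adjusted p = 3.0e-04 and 7.6e-08). These P60 levels were 12.7% and 15.4% of the perineurial level. Perineurial markers in the same cells ran at a median of 11.7% of their perineurial level in endoneurial cells and 1.52% (1.14% to 23.6%) in epineurial cells.

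Ogn encodes osteoglycin, also called mimecan, a class III member. At P1 the layers were close, with 562 ± 8.27 CPM in endoneurial, 395 ± 24.7 in perineurial and 524 ± 28.3 in epineurial cells. At P60 the order was different: epineurial cells held 1385, 1433 and 1628 CPM, perineurial cells 814, 851 and 989, and endoneurial cells 618, 682 and 549. P60 replicate 3 was here the highest library in the epineurial and perineurial layers and the lowest in the endoneurial layer. Ogn rose in epineurial cells by 1.50 ± 0.10 and in perineurial cells by 1.24 ± 0.11 on the log2 scale (edgeR, adjusted p = 1.1e-07 and 2.8e-07). The endoneurial change was 0.20 ± 0.13 (edgeR, adjusted p = 0.21), and was called without P60 replicate 3 (0.29; edgeR, adjusted p = 1.1e-04). The share of cells with an Ogn UMI at equal depth rose from 43.5% to 50.1% of epineurial cells at P1 to 76.9% to 80.0% at P60.

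Podn encodes podocan, a class V member that is known to bind collagen and to hold back smooth muscle growth. At P1 it was low in every layer, at 8.33 to 16.7 CPM. At P60 it stood at 202, 171 and 224 CPM in endoneurial cells and at 79.0, 63.2 and 68.0 CPM in epineurial cells, but at 11.3, 13.3 and 8.17 CPM in perineurial cells, where P1 had 9.30, 8.33 and 11.7. The rise was 4.27 ± 0.15 in endoneurial and 2.22 ± 0.16 in epineurial cells on the log2 scale (edgeR, adjusted p = 1.2e-11 and 3.1e-07). The perineurial groups overlapped, with a log2 change of 0.24 ± 0.26 (edgeR, adjusted p = 0.46). At equal depth 25.6% to 29.6% of P60 endoneurial cells held a Podn UMI, against 1.02% to 1.45% at P1.

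Set side by side within an age, most members differed between layers, as did many genes. At P1, 4 of 9 members were higher and 3 lower in epineurial than in endoneurial cells (28.5% and 27.9% of 11883 genes), 4 were higher and 3 lower in perineurial than in endoneurial cells (19.9% and 19.4%), and 6 were higher and 3 lower in epineurial than in perineurial cells (21.6% and 21.3%). At P60 the counts were 2 and 4 (19.1% and 16.4% of 13055 genes), 4 and 3 (25.0% and 21.4%), and 5 and 3 (31.3% and 31.0%). Aspn, Bgn, Fmod and Podn were higher and Dcn, Lum and Prelp lower in epineurial than in endoneurial cells at P1, and Aspn and Ogn higher and Dcn, Lum, Podn and Prelp lower at P60. In perineurial against endoneurial cells, Aspn, Bgn, Fmod and Omd were higher and Dcn, Lum and Ogn lower at P1, and Aspn, Ogn, Omd and Prelp higher and Dcn, Lum and Podn lower at P60. In epineurial against perineurial cells, Aspn, Dcn, Lum, Ogn and Podn were higher at both ages and Bgn at P1, while Fmod, Omd and Prelp were lower at both ages. Without P60 replicate 3, Fmod was also lower in epineurial than in endoneurial cells at P60 (-0.97 ± 0.09; edgeR, adjusted p = 2.0e-27). Most endoneurial Fmod UMIs of the remaining P60 libraries came from a single cell each. With every library kept, this difference was 0.44 ± 0.46 without tendon-marker cells (edgeR, adjusted p = 0.54). Under the gate on marker presence it was 4.52 ± 0.82 (edgeR, adjusted p = 0.017). Dcn and Lum were lower outside the endoneurial layer at both ages: Lum in perineurial cells was below endoneurial cells by 2.82 ± 0.04 on the log2 scale at P1 and by 7.48 ± 0.10 at P60, and epineurial cells were below endoneurial cells by 0.76 ± 0.04 and 3.28 ± 0.08 (edgeR, adjusted p = 1.1e-47, 3.1e-37, 1.7e-25 and 3.8e-29). Small differences at P1 moved with the scaling. Library size alone in place of TMM lowered the median of all genes for epineurial minus perineurial cells by 0.207 on the log2 scale, and Dcn there went from 0.16 to -0.05 and Bgn from 0.17 to -0.04, neither called (edgeR, adjusted p = 0.15 and 0.36). Ogn between epineurial and endoneurial cells at P1 went from 0.05 to -0.10 (edgeR, adjusted p = 0.25 and 0.015). The P1 difference of Prelp between epineurial and perineurial cells (-0.26 ± 0.09; edgeR, adjusted p = 0.013) was lost without P1 replicate 1 or 3 (adjusted p = 0.050 and 0.11), that between epineurial and endoneurial cells (-0.27 ± 0.08; edgeR, adjusted p = 0.0017) without P1 replicate 1 (adjusted p = 0.075), and the P60 difference of Aspn between perineurial and endoneurial cells (0.80 ± 0.24; edgeR, adjusted p = 0.045) without P60 replicate 1 (adjusted p = 0.23). The P1 difference of Podn between epineurial and perineurial cells (0.81 ± 0.22; edgeR, adjusted p = 0.0017) was lost without P1 replicate 2 (adjusted p = 0.058), and the P60 difference of Prelp between perineurial and endoneurial cells (0.24 ± 0.08; edgeR, adjusted p = 0.0084) without P60 replicate 2 or 3 (adjusted p = 0.23 and 0.16). DESeq2 lost the P1 differences of Prelp between epineurial cells and perineurial or endoneurial cells (DESeq2, adjusted p = 0.12 and 0.053). The doubled gate lead lost them too (edgeR, adjusted p = 0.21 and 0.060). Prelp between perineurial and endoneurial cells at P60 was not called by DESeq2 either (DESeq2, adjusted p = 0.12). Nor was Podn between epineurial and endoneurial cells at P1 (DESeq2, adjusted p = 0.067).

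Whether a layer difference itself changed between the ages was tested with the interaction of layer and age. For epineurial minus endoneurial cells the difference rose for 1 of 9 members and fell for 4 (15.0% and 13.3% of 13642 genes), for perineurial minus endoneurial cells it rose for 3 and fell for 4 (16.3% and 14.3%), and for epineurial minus perineurial cells it rose for 4 and fell for 1 (19.2% and 17.6%). The members counted were Ogn against Dcn, Lum, Podn and Prelp in the first pair of layers, Ogn, Omd and Prelp against Aspn, Dcn, Lum and Podn in the second, and Aspn, Lum, Ogn and Podn against Prelp in the last. The counts moved when single libraries were left out, and the shares of all genes called in those fits are not given beside them. Of 114 results of members in every comparison, leaving out P60 replicate 3 gained 16 calls, lost 2 and reversed 1. Standard errors shrank without it, for Bgn in epineurial minus endoneurial cells from 0.20 to 0.06. Without P60 replicate 3, the epineurial minus endoneurial difference rose for 1 member and fell for 7, with Aspn (-0.63 ± 0.10), Bgn (-0.46 ± 0.06) and Fmod (-3.17 ± 0.44) added (edgeR, adjusted p = 1.9e-07, 4.0e-10 and 3.3e-09). Without it the perineurial minus endoneurial difference rose for 2 and fell for 6, with Bgn (-0.82 ± 0.07) and Fmod (-3.46 ± 0.32) added and Prelp lost (0.18 ± 0.10; edgeR, adjusted p = 7.7e-25, 6.2e-16 and 0.15). The epineurial minus perineurial difference rose for 6 and fell for 1 without it, with Bgn (0.36 ± 0.06) and Dcn (0.13 ± 0.05) added (edgeR, adjusted p = 1.1e-07 and 0.036), and rose for 2 and fell for 1 without P1 replicate 2, where Aspn and Ogn were lost (edgeR, adjusted p = 0.053 and 0.18). With every library kept, Fmod without tendon-marker cells was at -1.7 ± 1.1 (epineurial minus endoneurial) and -0.55 ± 0.96 (perineurial minus endoneurial). Neither was called (edgeR, adjusted p = 0.33 and 0.73). DESeq2 with every library kept called Bgn in these pairs of layers (-0.53 ± 0.18 and -0.62 ± 0.18; DESeq2, adjusted p = 0.022 and 0.0050). It also called Fmod for epineurial minus endoneurial cells (-2.84 ± 1.10; DESeq2, adjusted p = 0.047). Lum moved most: the perineurial minus endoneurial difference fell by 4.62 ± 0.11 on the log2 scale from P1 to P60 and the epineurial minus endoneurial difference by 2.46 ± 0.09 (edgeR, adjusted p = 1.8e-57 and 7.3e-41). Podn followed, with -3.92 ± 0.31 and -1.98 ± 0.21, and Dcn with -1.45 ± 0.08 and -1.29 ± 0.08 (edgeR, adjusted p = 2.7e-19, 6.6e-13, 1.4e-28 and 4.1e-25). Ogn went the other way, with 1.10 ± 0.11 and 1.36 ± 0.11 (edgeR, adjusted p = 6.6e-14 and 3.1e-18). These 4 genes were called in both of these contrasts under each of the 14 alternatives run. Aspn in perineurial minus endoneurial cells was at -1.24 ± 0.25 (edgeR, adjusted p = 0.0029), at -0.73 ± 0.14 without tendon-marker cells, uncalled at -0.52 under the doubled gate lead, and at 1.88 ± 0.19 under the gate on marker presence.

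Outside the fibroblast layers, member counts were read beside RNA carried over from other cells, since the 7 fibroblast markers of the gate (Pdgfra, Col1a1, Col1a2, Col3a1, Col5a1, Mmp2 and Serpinf1) were also found there. In immune cells these markers ran at 3.56% to 9.59% of their highest layer at P1 and at 2.75% to 8.25% at P60, and the 9 members ran at 0.493% to 3.93% and 0.824% to 7.08%. In endothelial cells the markers ran at 7.53% to 12.1% and 2.20% to 4.26%. In immune cells no member exceeded the highest of these markers at either age, and in endothelial cells Bgn did at both ages and Prelp at P60 (12.2%). Of the 8 members tested in immune cells, edgeR called 6 higher at P60 (Dcn, Lum, Ogn, Prelp, Omd and Fmod) and 0 lower, and DESeq2 called 7 higher and 0 lower, with 0 lower also at an unadjusted p under 0.05 (20.3% of 10286 genes were higher and 17.6% lower). Bgn was the member that DESeq2 added (0.78 ± 0.31; DESeq2, adjusted p = 0.047). By edgeR Bgn in immune cells was at 0.77 ± 0.42 (adjusted p = 0.20) and was called without P60 replicate 3 (1.14 ± 0.15; edgeR, adjusted p = 7.4e-07), and Aspn was at -0.18 ± 0.40 (edgeR, adjusted p = 0.76). Of the 8 tested in endothelial cells, Dcn, Ogn, Prelp, Omd and Fmod were called higher and Bgn lower, or 5 and 1 (21.1% and 19.5% of 11086 genes), while Aspn was at -0.13 ± 0.21 and Lum at -0.38 ± 0.27 (edgeR, adjusted p = 0.65 and 0.30). Lum was called lower there without P60 replicate 1 (-0.71 ± 0.21; edgeR, adjusted p = 0.011). Podn did not pass the filter in either class. Without P60 replicate 3 it passed in immune cells and was called higher at P60 (2.75 ± 0.77; edgeR, adjusted p = 0.0051). With 50 cells drawn per library, 4 members passed the filter in each, of which edgeR called 0 in immune cells (3 at an unadjusted p under 0.05) and 2 in endothelial cells. Bgn in endothelial cells was at 21.6% of its highest layer at P1 and 14.5% at P60. It fell there from 192, 237 and 231 CPM to 159, 132 and 131 CPM, with no overlap (-0.63 ± 0.13; edgeR, adjusted p = 0.0012).

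Mural cells, the pericytes and smooth muscle cells of vessel walls, held Bgn and Aspn at levels near those of the fibroblast layers, and Fmod at P1 above them. Bgn was at 683 ± 27.6 CPM in pericytes and 850 ± 63.5 CPM in smooth muscle cells at P1, and at 436 ± 154 and 341 ± 36.7 CPM at P60. Aspn was at 956 ± 81.7 CPM in pericytes and 796 ± 111 CPM in smooth muscle cells at P1, and at 459 ± 21.4 and 779 ± 122 CPM at P60. The fibroblast markers ran at 2.00% to 19.6% of their highest layer in these cells, while Bgn ran at 35.7% to 83.7% and Aspn at 39.8% to 78.1%. In mural cells as a whole 4 of 8 members tested rose and 2 fell (18.8% and 17.2% of 9723 genes). Bgn fell by 0.90 ± 0.15 and Aspn by 0.69 ± 0.12 on the log2 scale (edgeR, adjusted p = 7.3e-04 and 0.0012), and Prelp rose from 12.5 ± 7.07 to 127 ± 11.1 CPM (3.34 ± 0.28; edgeR, adjusted p = 1.5e-05). Omd rose from 2.15 ± 1.36 to 23.8 ± 7.73 CPM (3.43 ± 0.45; edgeR, adjusted p = 1.6e-04). Dcn was not called (0.35 ± 0.38; edgeR, adjusted p = 0.53), and was called higher at P60 without P60 replicate 3 (0.69 ± 0.10; edgeR, adjusted p = 3.3e-05) and under the gate on marker presence (1.56 ± 0.17; edgeR, adjusted p = 4.7e-05). Lum was at -0.41 ± 0.20 (edgeR, adjusted p = 0.13), and was called lower without tendon-marker cells (-0.57 ± 0.19; edgeR, adjusted p = 0.032). Podn did not pass the filter.

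Fmod in mural cells at P1 stood above every fibroblast layer, at 37.3, 30.4 and 29.7 CPM, or 136% to 166% of its highest layer. At P60 it stood at 92.2, 99.0 and 59.2 CPM, which was 18.6% to 27.7% of its highest layer, and the rise was called (1.38 ± 0.21; edgeR, adjusted p = 4.2e-04). In pericytes Fmod went from 9.39 ± 1.78 to 93.3 ± 9.63 CPM, with no overlap. In smooth muscle cells it was at 96.9, 89.2 and 71.6 CPM at P1, or 329% to 487% of its highest layer, and at 61.7, 92.8 and 40.2 CPM at P60, where the groups overlapped and the level was 12.7% to 25.9% of its highest layer. The change was not tested within either alone. Smooth muscle cells at P1 held tendon markers at 230 to 280 CPM, in 27 of 53, 41 of 67 and 29 of 64 cells. Without tendon-marker cells the rise of Fmod in mural cells was larger (1.79 ± 0.25; edgeR, adjusted p = 2.0e-04). The part of these cells in the P1 level of Fmod was not tested. The rise of Ogn in mural cells (0.61 ± 0.17; edgeR, adjusted p = 0.017) was not called without these tendon-marker cells (0.29; edgeR, adjusted p = 0.21), nor without P1 replicate 1 or 3 (adjusted p = 0.074 and 0.078).

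In Schwann cells all 9 members were called higher at P60 and 0 lower in edgeR and DESeq2, also at an unadjusted p under 0.05 (26.8% of 11708 genes were higher and 22.4% lower), beside a rise of fibroblast markers in the same cells. Under the gate on marker presence 5 of 7 tested were called: Aspn (0.54 ± 0.35) and Lum (0.68 ± 0.36) were not (edgeR, adjusted p = 0.24 and 0.14), and Fmod and Podn were not tested. The 7 fibroblast markers ran at 3.56% to 18.5% of their highest layer at P1 and at 14.2% to 28.8% at P60, where 508 Schwann cells were gated. Dcn stood at 119, 179 and 136 CPM at P1 and at 7210, 8415 and 4006 CPM at P60, which was 13.7% of the highest layer and below the range of the markers. Ogn differed from this. It stood at 98.0, 96.1 and 94.98 CPM at P1 and at 678, 819 and 715 CPM at P60, or 17.1% of its highest layer at P1 and 43.9% to 57.1% at P60, the latter above all 7 markers. Bgn was at 29.3% at P60, beside 28.8% for the highest marker.

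The share of cells with a UMI at equal depth set Ogn apart from Dcn in Schwann cells. For Dcn it was 9.30% to 11.0% at P1 and 52.3% to 58.6% at P60 in Schwann cells, against 10.3% to 12.5% and 36.8% to 48.1% in immune cells, so the ranges overlapped at P1. For Ogn it was 11.3% to 12.7% at P1 and 39.1% to 52.7% at P60 in Schwann cells, against 1.56% to 2.61% and 5.95% to 7.49% in immune cells. All 3 Schwann values were above all 3 immune values at each age for Ogn. The log2 change of Ogn in Schwann cells was 2.88 ± 0.14 (edgeR, adjusted p = 1.6e-10).

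**Figure D4:**
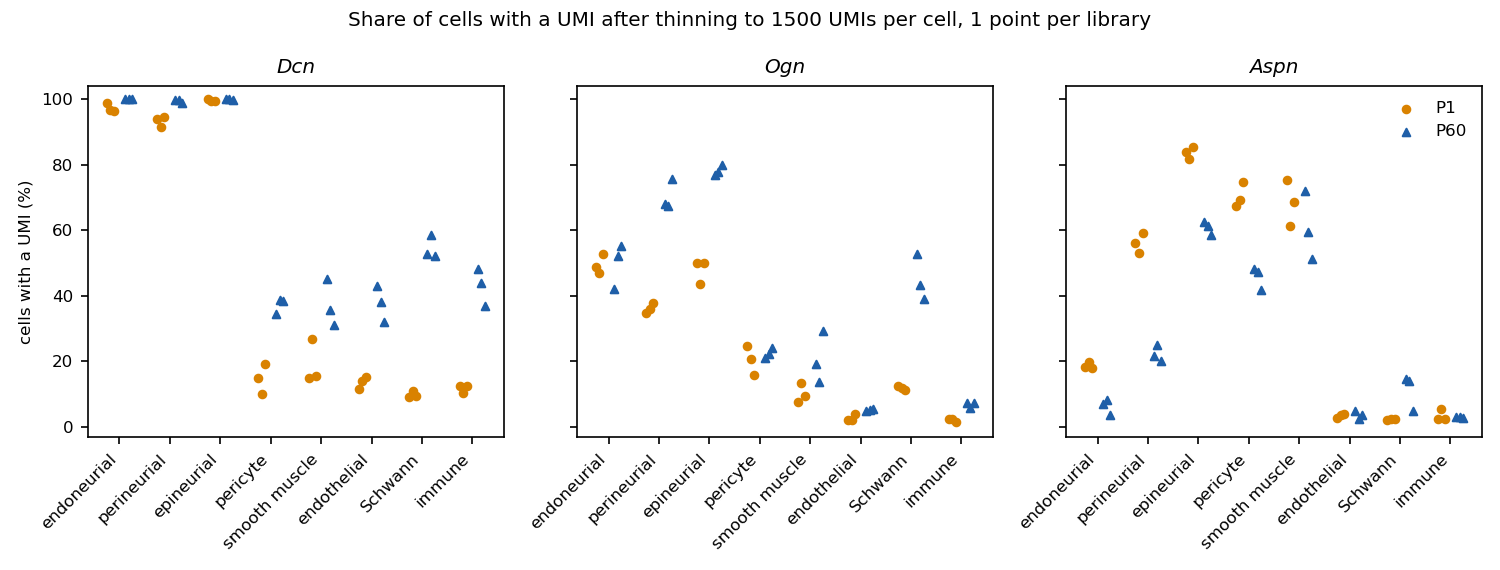
Share of cells with a UMI of Dcn, Ogn or Aspn in 8 gated classes after thinning every cell to 1500 UMIs, 1 point per library, P1 as circles and P60 as triangles. Dcn was found in at least 91.6% of the cells of each layer, Ogn in 39.1% to 52.7% of P60 Schwann cells, and Aspn in 41.7% to 74.8% of pericytes and 51.4% to 75.5% of smooth muscle cells.

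**Figure D5:**
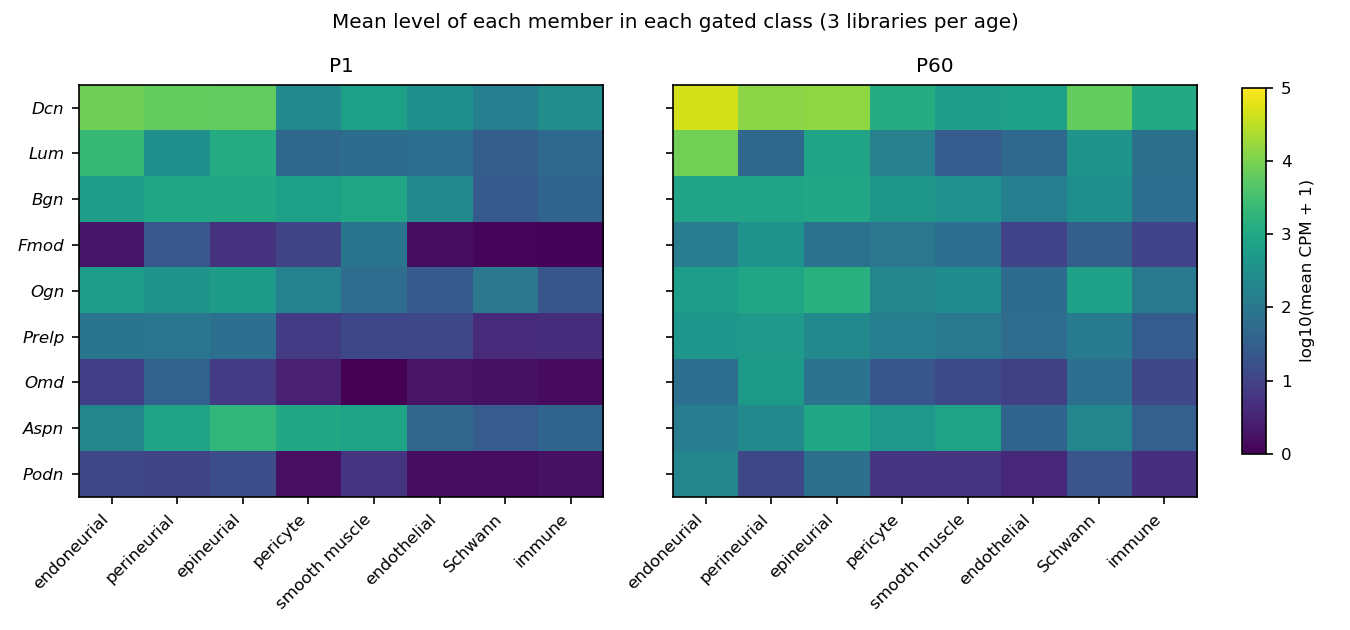
Mean level of each member in 8 gated classes at P1 and P60, as log10 of mean CPM plus 1 over 3 libraries per age. The 3 fibroblast layers on the left hold the highest levels of most members, and Aspn and Bgn extend into pericytes and smooth muscle cells.

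Among 8 further genes of the family, 4 passed the filter on low counts in each layer: Kera, Epyc, Ecm2 and Tsku. Of these 4, 1 rose and 1 fell in endoneurial and in epineurial cells, and 1 rose and 3 fell in perineurial cells. Of all genes tested, 24.1% rose and 23.6% fell in endoneurial, 27.3% and 26.6% in perineurial, and 21.9% and 21.1% in epineurial cells. The endoneurial and epineurial counts and the perineurial count of rises were near these shares. Ecm2, the neighbour of Aspn, rose in all 3 layers, by 2.46 ± 0.15, 2.97 ± 0.13 and 2.26 ± 0.20 on the log2 scale in endoneurial, perineurial and epineurial cells (edgeR, adjusted p = 3.0e-09, 3.5e-10 and 1.9e-06). Kera, keratocan of the Dcn and Lum cluster, had 609 UMIs in endoneurial cells at P1 and 0 at P60, which with a floor of 3 UMIs over the group is at least 44.7-fold lower. In perineurial cells a single Kera UMI was left at P60, and the level was lower by a factor of 933 (95% counting interval 167 to 36800). In epineurial cells 46 UMIs at P1 stood against 9 at P60. Epyc, epiphycan, fell in perineurial cells by 0.71 ± 0.22 (edgeR, adjusted p = 0.015) and stood at 71.1 and 97.6 CPM in endoneurial cells at P1 and P60. Tsku fell in perineurial cells by 2.36 ± 0.33 (edgeR, adjusted p = 3.2e-05). Chad had no UMI in any layer at P1 and 36, 1 and 62 UMIs in endoneurial, perineurial and epineurial cells at P60, Optc had 8 to 35 UMIs per layer and age apart from 0 in endoneurial cells at P60, and Nyx and Podnl1 had at most 2.

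The genes that the proteoglycans work with were counted by list, beside the shares of all genes tested that rose and fell: 24.1% and 23.6% in endoneurial, 27.3% and 26.6% in perineurial, and 21.9% and 21.1% in epineurial cells. Differences of the list counts between layers were not tested. Of 12 fibrillar collagens and partners, 10 of 12 tested fell and 1 rose in perineurial cells, 11 of 12 fell and 1 rose in epineurial cells, and 6 of 11 fell and 4 rose in endoneurial cells. The median log2 change of this list was -2.01, -1.07 and -0.34 in these layers. Eln (elastin) and Tnc (tenascin C) were the largest called changes in perineurial cells, at -4.13 ± 0.29 and -3.53 ± 0.29 (edgeR, adjusted p = 3.2e-07 and 1.8e-07), Col11a1 and Tnc in epineurial cells, at -4.32 ± 0.28 and -2.91 ± 0.25 (edgeR, adjusted p = 1.3e-07 and 1.2e-06), and Col11a1 and Col12a1 in endoneurial cells, at -2.10 ± 0.13 and -1.92 ± 0.18 (edgeR, adjusted p = 3.3e-09 and 4.6e-07).

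Of 25 genes for glycosaminoglycan chain assembly, 5 rose and 5 fell of 18 tested in endoneurial cells, 4 rose and 8 fell of 17 in perineurial cells, and 9 rose and 6 fell of 20 in epineurial cells, with medians of 0.04, -0.60 and 0.41. The endoneurial counts in both directions and the perineurial count of rises were near the shares of all genes given above. Csgalnact1, which starts chondroitin sulphate chains, rose in endoneurial cells (1.51 ± 0.22) and fell in perineurial cells (-2.93 ± 0.37; edgeR, adjusted p = 3.5e-05 and 1.1e-05). Ust, a uronyl sulphotransferase, rose in both (2.02 ± 0.40 and 2.13 ± 0.22; edgeR, adjusted p = 6.6e-04 and 1.6e-06). Chst7 and Chst1, also sulphotransferases, rose in epineurial cells by 4.50 ± 0.32 and 2.78 ± 0.24 (edgeR, adjusted p = 3.2e-07 and 1.7e-06).

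Of 14 genes for procollagen and proteoglycan processing, 10 were tested in each layer. In perineurial cells 8 fell and 1 rose, in endoneurial cells 4 fell and 2 rose, and in epineurial cells 3 fell and 2 rose, with medians of -1.02, -0.32 and 0.05. The epineurial counts and the endoneurial count of rises were near the shares of all genes. Adamts4, an aggrecanase, and Lox, which crosslinks collagen, fell in perineurial cells by 4.16 ± 0.33 and 2.89 ± 0.15 (edgeR, adjusted p = 1.2e-07 and 1.6e-09). Lox and Adamts14, a procollagen peptidase, fell in epineurial cells by 1.09 ± 0.13 and 1.65 ± 0.32, and Mmp14 and Adamts14 fell in endoneurial cells by 1.46 ± 0.13 and 1.01 ± 0.40 (edgeR, adjusted p = 3.3e-05, 0.0011, 2.2e-07 and 0.048).

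Of 17 growth factors and receptors that the proteoglycans are known to meet, 8 rose and 1 fell of 13 tested in endoneurial cells. In perineurial cells 5 rose and 3 fell of 14, and in epineurial cells 8 rose and 3 fell of 17. The medians were 0.99, 0.13 and 0.38 in these layers. The perineurial counts and the epineurial count of falls were near the shares of all genes. Wisp1, a matricellular protein of the CCN family, fell in all 3 layers, by 3.30 ± 0.17, 3.26 ± 0.16 and 5.98 ± 0.27 in endoneurial, perineurial and epineurial cells (edgeR, adjusted p = 4.1e-10, 1.1e-09 and 5.2e-09). Bmp2 rose in endoneurial cells by 4.14 ± 0.46 and in epineurial cells by 3.53 ± 0.26, and Tgfb2 fell in perineurial cells by 3.79 ± 0.20 (edgeR, adjusted p = 2.6e-06, 3.4e-07 and 2.2e-09).

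Over the 14 means of 7 cell classes at 2 ages, the genes with the most similar pattern to each member were named by Pearson's r of log2(CPM + 1) among 9055 genes outside the family, as a description without a test, since the points share libraries. Dcn ran closest to Adamtsl3 (0.972) and Il33 (0.969), Lum to Osr2 (0.968) and Cpxm1 (0.958), and Bgn to Hoxa10 (0.967) and Hic1 (0.948). Osr2 is a marker of the endoneurial gate. Omd ran closest to Itgbl1 (0.976) and Krt19 (0.953), Ogn to Ltbp3 (0.964) and Frmd6 (0.962), and Podn to Abi3bp (0.962) and Steap3 (0.933). Prelp ran closest to Serping1 (0.948) and Atp11a (0.942), Fmod to Frs2 (0.935) and Nbl1 (0.929), and Aspn to Prrx1 (0.921) and Cd248 (0.909).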

How the data were processed

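For each of the 6 libraries, UMI counts by gene and barcode were used as the authors deposited them, from Cell Ranger 2.0.2. The processing notes name GRCm38.p5, while the study's methods name a human build. The gene identifiers are those of mouse, and coordinates here are those of GRCm38 with the GENCODE M21 annotation. 

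Cells with 500 to 5000 detected genes were kept. Total UMIs per library were 25718954, 27061724 and 29371559 at P1 and 21257654, 25978839 and 20092957 at P60. No doublet caller was run. The study's methods give the same bounds on detected genes as its filter for poor cells and possible doublets, and the study held a mixed cluster of pericytes and endothelial cells to be probable doublets; such cells were not removed here. Counts were scaled to 10000 per cell, log-transformed and standardised within age, and each cell was gated by the mean of its marker genes (53 genes, none of them a member), with a lead of 0.25 over the next class and a score above 0. Fibroblast-lineage cells were then gated to a layer in the same way, and mural cells to pericytes or smooth muscle cells. Cell types are therefore rebuilt and may differ from those of the study.

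Counts were summed per library and class, and CPM are counts per 1e6 UMIs of that sum. Since 1 UMI stands for 1 captured molecule, no length scaling was applied. Ages were compared in each class with edgeR 4.0.16 (quasi-likelihood test, TMM, filterByExpr, R 4.3.3) and Benjamini-Hochberg adjustment over all genes tested at 0.05. Layers were compared with library as a block, and the interaction of layer and age in all 6 libraries. Standard errors are the log2 change divided by the square root of F. Shares of cells were computed after thinning each cell to 1500 UMIs, which left out 110 cells at P60 and 0 at P1, and compared by an exact permutation test over libraries (SciPy 1.17.1). Counting intervals and floors (3 UMIs over the group) cover counting error only.

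Alternatives were RLE size factors, library size alone, DESeq2 1.42.0, no filter, each library left out, cells over 10% mitochondrial UMIs left out, the gate lead doubled to 0.50, a gate on marker presence, the replicate block, 50 cells drawn per library, and thinning to 1000 UMIs or none. Leaving out cells with a UMI of Tnmd, Scx or Mkx was chosen after seeing the data. The members, the gene lists and the tests were chosen with earlier results of these data known. The rule for named genes was all 9 members in each comparison and every gene of the list of other family members; where no value is printed for a member outside its own paragraph, its direction or its place in the count is given. Of the remaining lists, the 2 called genes with the largest absolute log2 change per layer are named, and for likeness the 2 genes with the highest r among those with a mean of at least 10 CPM. The tests were also run on simulated data.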

Additional observations from a re-analysis of the deposited data

Results flagged for a closer look

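For 17 combinations of the 9 members and 3 layer pairs, the layer difference changed between P1 and P60 by the interaction test of edgeR, as log2 values of P60 minus P1. Of all 13642 genes tested, the difference rose for 15.0% and fell for 13.3% (epineurial minus endoneurial). These shares were 16.3% and 14.3% for perineurial minus endoneurial cells, and 19.2% and 17.6% for epineurial minus perineurial cells. Lum changed by -4.62 (perineurial minus endoneurial), -2.46 (epineurial minus endoneurial) and 2.16 (epineurial minus perineurial), and Podn by -3.92, -1.98 and 1.94 in the same order. Dcn changed by -1.45 and -1.29 in the first and second of these pairs. Ogn changed by 1.10, 1.36 and 0.27, where the last, between epineurial and perineurial cells, was called in 9 of 14 alternatives. Aspn changed by -1.24 between perineurial and endoneurial cells and by 0.87 between epineurial and perineurial cells, the latter not called without P1 replicate 2 (0.83; edgeR, adjusted p = 0.053). Omd changed by 0.84 between perineurial and endoneurial cells, called in 12 of 14 alternatives and not without P1 replicate 1 (0.71; edgeR, adjusted p = 0.060). Prelp changed by 0.27, -0.35 and -0.62 in the order given for Lum, and these were called in 4, 11 and 14 of 14 alternatives. Prelp between epineurial and endoneurial cells was not called without P1 replicate 2 or 3 (edgeR, adjusted p = 0.12 and 0.076).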

How the results depend on the processing

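Of 1910 results of a member under an alternative, 1795 kept their direction and their side of the threshold, 55 lost the call, 49 gained it and 11 reversed. Under the gate on marker presence, Aspn changed to 2.69 (epineurial minus endoneurial) and 1.88 (perineurial minus endoneurial) in its layer difference by age, Fmod to 4.52 and Omd to 0.85 for epineurial minus endoneurial cells at P60 and P1, Prelp to 0.13 for epineurial minus perineurial cells at P1, and Lum to 0.70 for age in epineurial cells, and 5 members were called in Schwann cells. With library size alone, Bgn and Dcn changed to -0.041 and -0.047 for epineurial minus perineurial cells at P1, and Ogn to -0.10 for epineurial minus endoneurial cells. At P1 that scaling took the share of higher calls among called genes from 50.5% to 36.8% (epineurial minus endoneurial) and from 50.3% to 28.1% (epineurial minus perineurial), and at P60 from 53.7% to 43.1% (epineurial minus endoneurial). Without P60 replicate 3, Bgn changed to -0.17 for perineurial minus endoneurial cells at P60, and over all left-out libraries it ran from -0.17 to 0.25. With 50 cells per library, Dcn changed to -0.44 for age in endothelial cells, and 2 members were called in endothelial and 0 in immune cells (edgeR, 3 at an unadjusted p under 0.05). With the gate lead doubled, 4 members were called in the perineurial minus endoneurial interaction. Leaving out 1 library at a time gave 4 to 8 members for the epineurial minus endoneurial interaction, 5 to 8 for perineurial minus endoneurial and 3 to 7 for epineurial minus perineurial. The shares of all genes called in these fits are not given beside these counts. The cause of these shifts was not tested, other than the smaller number of cells with 50 per library.

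Over all genes, 50 cells per library lowered the calls for age from 5420 to 1448 in endoneurial, 6256 to 2243 in perineurial, 5009 to 1081 in epineurial, 3499 to 1019 in mural, 4506 to 1302 in endothelial, 5762 to 1209 in Schwann and 3891 to 656 in immune cells. DESeq2 lowered those at P1 from 4663 to 2836 (perineurial minus endoneurial) and from 5100 to 3365 (epineurial minus perineurial).

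The replicate numbers did not pair the libraries: the deviations of same-numbered libraries correlated at -0.058 to 0.087. With the replicate block, 7 members were called in endothelial cells, where Lum was added (-0.44; edgeR, adjusted p = 0.048). Podn passed the filter in immune cells with this block and was called higher at P60 (2.63 ± 0.78; edgeR, adjusted p = 0.012). No call of a member was lost. Depth limits Fmod at P1, which had 14 UMIs in endoneurial cells over 3 libraries.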
